A study of Mus musculus with 4 samples.

Results

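The genes Cdkn1a, Phlda3, Zmat3 and Trp53inp1, which the tumour suppressor p53 is known to switch on, were followed in C17.2 cells, an immortalised line of mouse multipotent neural progenitors. They were found by their symbols in the authors' sheet of called probes. Each symbol stood on 1 probe, so the 4 genes are 4 of the 8519 genes named there and 4 of the 26423 probes on the array. The names exist only for probes that the authors had already called changed on these arrays, and the 4 genes were proposed with that outcome known. The controls were C17.2 cells given 7.38 mM AAPH, an azo compound that releases peroxyl radicals in water, for 12 h. The other group had the same AAPH for 12 h together with 1.69 µM berberine, a plant alkaloid. Each group had 2 single-colour arrays hybridised with Cy5-labelled RNA, and no labelled sample was free of AAPH. The comparison therefore asks what berberine altered in damaged cells, and it does not show what AAPH did to these genes. The labels do not say whether the arrays of a group came from separate cultures, so the p-values measure only the spread between these arrays, and their small number limits the precision. All samples came from 1 cell line.

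The transcription factor p53 is kept low in unstressed cells by the ubiquitin ligase Mdm2 and is stabilised by DNA damage and oxidative stress. It then binds response elements near its target genes and raises their transcription. Cdkn1a encodes p21, which inhibits cyclin-dependent kinases and holds the cell cycle. Phlda3 encodes a pleckstrin homology domain protein that competes with Akt for membrane lipids and so restrains Akt. Zmat3, also called Wig1, encodes a zinc finger protein that binds RNA. Trp53inp1 encodes a nuclear protein that takes part in p53-dependent death and arrest and in autophagy. In neural progenitors p53 and p21 are known to limit self-renewal.

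Of the 4 genes, 2 matched the RefSeq table of promoter windows (build GRCm38.p6), Cdkn1a with a pair of start sites and Phlda3 with a single start. The windows are shown because p53 acts through response elements, and any part of p53 binding in the changes of these genes was not tested. Each window was searched from 250 bases before to 50 bases after the start, on both strands, and the 250 bases before the start are printed 5′ to 3′. Capitals in the first sequence mark a p53 response element, taken as 20 contiguous letters with at most 1 mismatch to the consensus. Capitals in the other sequences mark GC boxes (GGGCGG or its complement CCGCCC), which Sp1-type factors bind.
Cdkn1a, upstream start, chr17:29090729-29090978, plus strand: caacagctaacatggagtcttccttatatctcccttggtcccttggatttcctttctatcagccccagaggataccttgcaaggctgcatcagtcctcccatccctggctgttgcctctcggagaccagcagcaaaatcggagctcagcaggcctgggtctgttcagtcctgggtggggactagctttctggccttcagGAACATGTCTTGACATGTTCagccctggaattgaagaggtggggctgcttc
Cdkn1a, downstream start, chr17:29093519-29093768, plus strand: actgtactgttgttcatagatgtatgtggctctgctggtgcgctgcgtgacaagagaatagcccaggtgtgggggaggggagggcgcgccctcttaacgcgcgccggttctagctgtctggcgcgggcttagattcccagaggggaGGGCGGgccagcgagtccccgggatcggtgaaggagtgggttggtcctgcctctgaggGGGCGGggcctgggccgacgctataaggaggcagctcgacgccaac
Phlda3, chr1:135765835-135766084, plus strand: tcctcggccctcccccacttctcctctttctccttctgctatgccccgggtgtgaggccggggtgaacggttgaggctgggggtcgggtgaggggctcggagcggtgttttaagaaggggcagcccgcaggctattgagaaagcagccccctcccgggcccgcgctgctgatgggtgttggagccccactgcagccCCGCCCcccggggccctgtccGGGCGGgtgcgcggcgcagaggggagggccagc

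The element of Cdkn1a, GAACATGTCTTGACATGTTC, lay 51 to 32 bases before the upstream start and had 1 mismatch. Such an element was present in 18 of the 32851 promoter windows in the table (0.0548%). The downstream start of Cdkn1a lies 2790 bases further on, and its window held no such element and 2 GC boxes. The window of Phlda3 held 3 GC boxes, 1 of them after the start, and no p53 element in these letters. GC boxes were present in 35.7% of all windows. None of the windows of these genes held the letters CCAAT (37.4% of all windows) or TATAAA (13.6%). A match describes letters and does not show binding, and the array cannot tell which Cdkn1a start was used.

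All 4 genes had a lower probe signal with berberine. On each probe both berberine arrays lay below both AAPH arrays in the values as deposited, which was true of 31.6% of all probes. Each fall also passed limma at an adjusted p of 0.05, as did falls on 22.5% of all probes (5943 of 26423) and on 44.1% of named genes. Rises passed on 40.2% of all probes and 55.6% of named genes. On the values as deposited 19.8% of all probes were called lower and 13.4% higher. On bulk arrays a fall in RNA per cell and a lower share of cells carrying that RNA cannot be told apart.

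Cdkn1a, the cell cycle inhibitor p21, had intensities of 15830 and 12478 on the AAPH arrays and of 1240 and 1133 with berberine. Both berberine arrays were low and close together, and the groups did not overlap. The means were 14154 ± 2370 and 1187 ± 75.7 (SD, n = 2 each), so the signal remained well above background after its fall. After quantile normalization the decrease was 8.56-fold, with a log2 fold change of −3.10 ± 0.111 (SE of the limma fit, n = 2 per group) and an adjusted p of 0.000299. On the log2 scale the AAPH arrays differed by 0.065 and the berberine arrays by 0.011, far less than the groups did.

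Trp53inp1, the p53-induced nuclear protein, gave 9102 and 6874 under AAPH and 199 and 187 with berberine. The means were 7988 ± 1575 and 193 ± 8.49 (SD, n = 2 each). The berberine values were near the lowest signals that the authors' detection p-values accepted on those arrays, 127 and 113. They still counted as detected (detection p = 7.38e-05 in the authors' deposited table). The fitted log2 fold change was −4.95 ± 0.154, a 30.9-fold decrease with an adjusted p from limma of 0.000236 (n = 2 per group).

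Phlda3, the Akt antagonist, went from 30689 and 26668 under AAPH to 22 and 44 with berberine. Both AAPH arrays were bright, and both berberine arrays lay below the detection limit (detection p = 0.814 in the authors' deposited table). With the berberine signal raised to the lowest detected value on each array, Phlda3 was at least 247-fold lower. This bound depends on that rule, because some other probes at background had signals above the lowest detected value. The fitted log2 fold change of −10.25 ± 0.113 (adjusted p from limma 0.000186, n = 2 per group) was measured against background signal, and its size therefore has no meaning beyond that bound.

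Zmat3, the RNA-binding zinc finger gene, had 8294 and 7075 under AAPH and 32 and 46 with berberine. Here too the berberine arrays were at background (detection p = 0.742 in the authors' deposited table), and the groups did not overlap. By the same rule Zmat3 was at least 52.8-fold lower. The fit gave −7.59 ± 0.188 on the log2 scale with an adjusted p from limma of 0.000188 (n = 2 per group). The berberine arrays differed by 0.417 on this scale, the widest gap within a group among the 4 genes, at a signal level that is background.

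**Figure D1:**
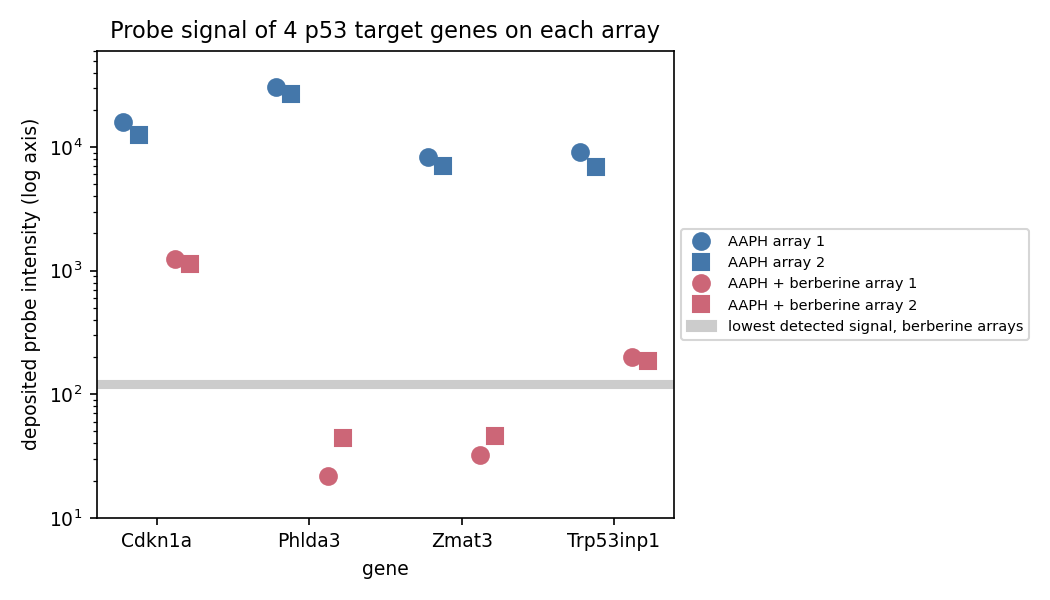
Deposited probe intensity on a log axis for each gene on each of the 4 arrays, with blue for AAPH and red for AAPH with berberine. The grey band spans the lowest detected signal on the berberine arrays (113 to 127). All berberine points lie below all AAPH points of their gene, and those of Phlda3 and Zmat3 lie under the band.

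The falls of Cdkn1a and Trp53inp1 differed in size. Both genes were measured above background in both groups, and their 95% intervals did not overlap (log2 −3.41 to −2.78 for Cdkn1a and −5.38 to −4.52 for Trp53inp1). The fall of Trp53inp1 exceeded that of Cdkn1a by 1.85 on the log2 scale. Under the rule used here the bound of Phlda3 was 7.95 in log2 and that of Zmat3 5.72, each outside the interval of Trp53inp1. The bounds carry no error and depend on the lowest detected signals, so the order of Zmat3 and Trp53inp1 is not settled. Because both are bounds, Phlda3 and Zmat3 have no order between them. Of all probes on the array, 7.74% had a fitted fall larger than that of Cdkn1a and 3.19% one larger than that of Trp53inp1. Falls of at least 8-fold were called on 7.99% of probes.

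The authors' deposited table gave log2 ratios of −3.12 for Cdkn1a and −5.09 for Trp53inp1. It gave −6.64 for both Phlda3 and Zmat3, which is the lowest ratio in that table and is shared by 209 probes. These ratios come from the same arrays and add no independent measurement. Under the 10 other settings of the fit, the log2 fold change ran from −3.57 to −2.88 for Cdkn1a and from −5.36 to −4.75 for Trp53inp1. It ran from −10.50 to −9.23 for Phlda3 and from −7.64 to −7.03 for Zmat3, and the largest adjusted p from limma for any of them was 0.0188.

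**Figure D2:**
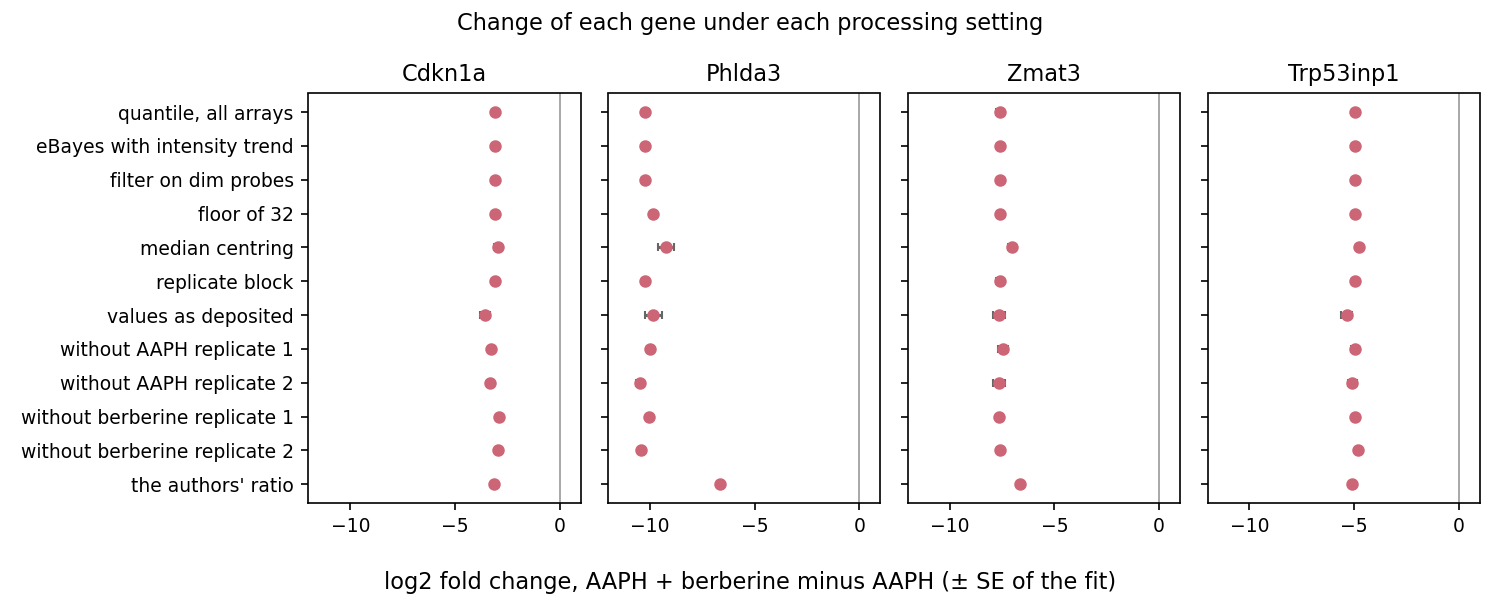
Log2 fold change (AAPH with berberine minus AAPH) of each gene under each processing setting, with bars for the SE of the fit. The authors' ratio has no SE and stops at −6.64. Each gene stays below 0 in every row, from about −3 for Cdkn1a to about −10 for Phlda3.

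Bright probes fell more often than dim ones on these arrays, and the 4 probes were bright under AAPH. When all probes were ranked by their mean log2 signal on the AAPH arrays and cut into 10 bins of equal size, Cdkn1a and Phlda3 lay in the brightest bin and Zmat3 and Trp53inp1 in the next. In the brightest bin 47.7% of probes were called lower and 27.1% higher, and 22.7% had a fitted fall of at least 8-fold. In the next bin 45.0% were called lower and 39.3% higher. Probes of the series whose identifiers start with mMC or mMR, which hold Phlda3, Zmat3, Trp53inp1 and Cdkn1a, were called lower in 31.2% and 35.2% of cases, against 17.9% for the PH_mM series. The part of signal level and probe series in the 4 falls was not tested. The array medians also differed, from 273 to 333 under AAPH and from 189 to 206 with berberine. On the values as deposited, with no further normalization, the split of calls over all probes was 5236 lower and 3534 higher. After quantile normalization of those values it was 5943 lower and 10635 higher.

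**Figure D3:**
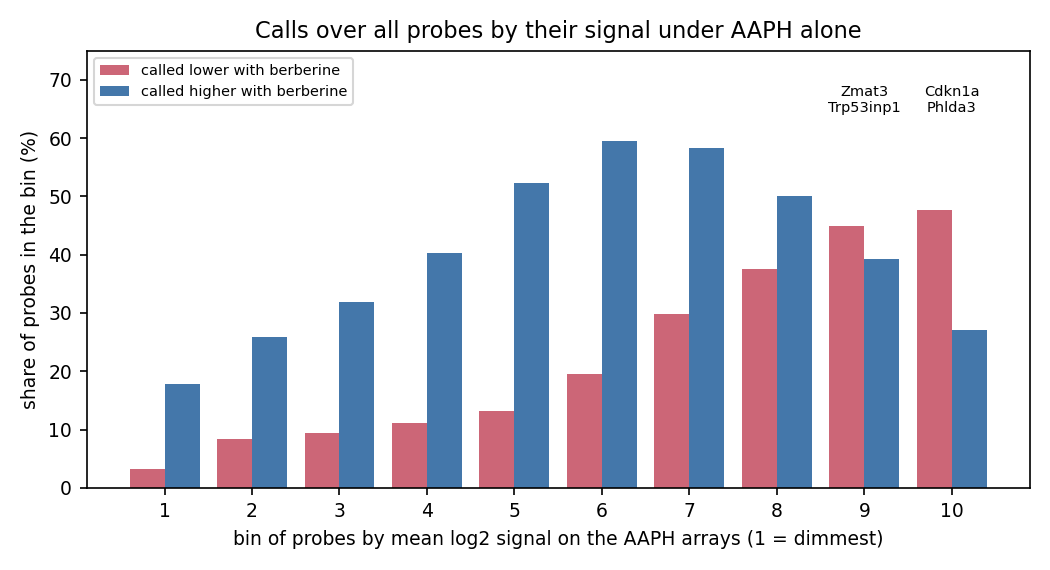
Share of probes called lower (red) and higher (blue) with berberine in each of 10 equal bins of probes, ranked by signal on the AAPH arrays from the dimmest (1) to the brightest (10). The share called lower rises from 3.21% to 47.7%, and the names mark the bins that hold the 4 genes.

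The gene for p53 itself was lower as well. Trp53 had intensities of 13097 and 11186 under AAPH and 515 and 549 with berberine, with no overlap between the groups. This was a 15.7-fold decrease, log2 −3.97 ± 0.122 (adjusted p from limma 0.000231, n = 2 per group). Mdm2, the ligase that degrades p53, had no named probe and was not analysed here. Of 23 listed genes of p53 and its regulators 13 had a name, of which 9 were lower and 4 higher, with a median log2 fold change of −1.72. Because only called probes carry names, nearly every named gene passes (99.7%), and the informative quantity is the direction, which was lower in 44.1% of all named genes (median log2 fold change 1.22). Cdkn2a, one of whose products, ARF, blocks Mdm2, was at least 51.7-fold lower, with 9232 and 7320 under AAPH and background signal of 120 and 134 with berberine. The deacetylase Sirt1, which acts on p53, was at least 10.2-fold lower. The coactivator Ep300 went the other way and rose from 3083 and 2784 to 19146 and 13606 (log2 2.90 ± 0.142). The damage kinase Atr rose by log2 2.36 ± 0.136 and Trp53bp1, a protein of double-strand break repair, by 2.38 ± 0.118. Adjusted p-values from limma for these 5 genes ran from 0.000186 to 0.000684.

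Other targets of p53 were lower more often than higher. Over 3 lists of 58 such genes, chosen with results of these arrays known, 43 had a name, of which 29 were lower and 14 higher. That is 67.4% lower, against 44.1% of all named genes, with a median log2 fold change of −1.66. The 9 targets at background with berberine were taken at their bound in a second median, which was −1.48. On the values as deposited 29 were lower and 7 higher. Over all probes, 19.8% were called lower and 13.4% higher on those values, against 22.5% and 40.2% after quantile normalization. The share over named genes was not computed on the values as deposited. By probe series, 19 of 23 targets with an mMC probe were lower, both of those with an mMR probe, and 8 of 18 with a PH_mM probe. Named genes of all kinds were lower in 56.8% of the mMC, 59.7% of the mMR and 34.0% of the PH_mM series.

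Among 18 listed arrest and feedback targets 12 had a name, of which 7 were lower and 5 higher (median log2 fold change −1.71). Tob1, an antiproliferative factor of the BTG family, fell from 10050 and 8566 to background values of 109 and 124, at least 62.9-fold. The G2 and S phase protein Gtse1, which binds p53, had a log2 fold change of −3.11 ± 0.152, and of −3.88 on the values as deposited. Gadd45a, a damage-induced growth arrest gene named after its values were seen, had 11561 and 9799 under AAPH and 40 and 144 with berberine, where it was at background. It was at least 67.7-fold lower. The stress sensor Sesn2 was at least 3.08-fold lower. Sfn, the 14-3-3σ gene that holds cells in G2, rose from 222 and 209 to 885 and 668 (log2 2.63 ± 0.169). Eda2r, a member of the TNF receptor family, and Ckap2, a spindle protein, rose by 1.82 ± 0.122 and 1.70 ± 0.113. On the values as deposited, these last 2 rises lost their call (adjusted p = 0.0679 and 0.0974 from limma), while that of Sfn passed with log2 1.84 (adjusted p from limma 0.0119).

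Death targets were mostly lower, 11 of the 14 with a name, with 3 higher, of 20 listed (median log2 fold change −1.98). That is 78.6% lower, against 44.1% of all named genes. The list mixes genes that promote death with inhibitors such as Triap1, so the count gives no direction for death itself. Triap1, an inhibitor of apoptosome assembly, fell from 17711 and 15857 to 230 and 226 (log2 −5.97 ± 0.134) and was still detected. Tnfaip8, at background with berberine, had a fitted decrease of 20.3-fold on its brighter named probe, which is an estimate and not a bound because both berberine values lay above the lowest detected signals. Its other named probe had a log2 fold change of 1.35. Pmaip1, the BH3-only gene Noxa, was at least 6.01-fold lower. Bbc3, the BH3-only gene Puma, had 4975 and 4030 under AAPH and 11454 and 7471 with berberine (log2 1.44 ± 0.145). The death receptor gene Tnfrsf10b and Trp53i13 also passed as higher, with log2 1.52 ± 0.124 and 1.90 ± 0.110. All 3 rises lost their call on the values as deposited (adjusted p from limma 0.0535 to 0.0815).

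Of 20 listed repair and metabolism targets 17 had a name, of which 11 were lower and 6 higher (median log2 fold change −1.47). The nucleotide excision repair gene Xpc fell to background, at least 8.20-fold. Ephx1, a microsomal epoxide hydrolase, fell by 2.20 ± 0.118 in log2. The lipid transfer gene Pltp rose from 1410 and 1245 to 5641 and 5564 (log2 2.80 ± 0.142, or 2.08 on the values as deposited). The sheet's 9630033F20Rik, now called Tigar, a regulator that lowers glycolytic flux, rose by 1.82 ± 0.129. Ercc5, an excision repair nuclease, rose by 1.47 ± 0.115, a call lost on the values as deposited (adjusted p from limma 0.127).

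**Figure D4:**
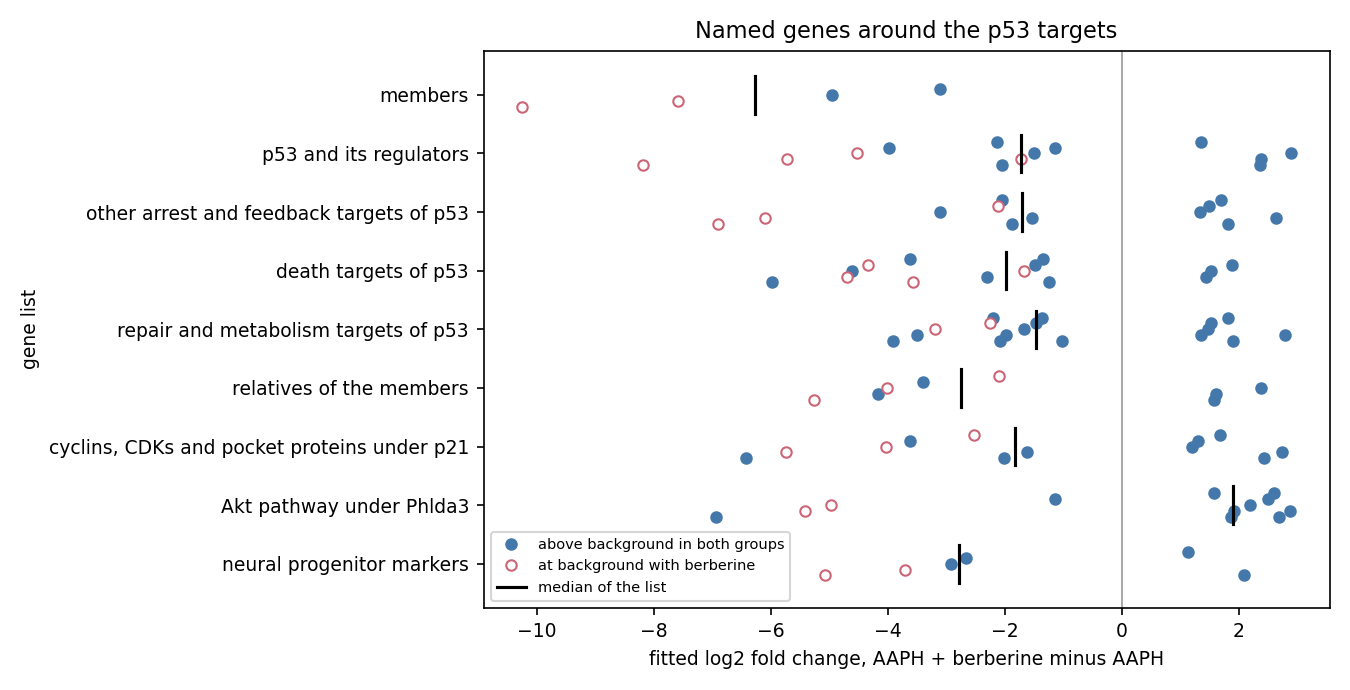
Fitted log2 fold change (AAPH with berberine minus AAPH) of each named gene in 9 lists. Filled blue points were above background in both groups, open red points were at background with berberine, and the black bar is the list's median. The row named members holds Cdkn1a, Phlda3, Zmat3 and Trp53inp1, all left of 0, while the other rows spread to both sides. The strip around 0 is empty, and the authors' deposited table, the source of the names, holds 0 ratios between −1 and 1.

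Relatives of the 4 genes did not all move with them. Of 12 listed relatives 8 had a name, of which 5 were lower and 3 higher. Trp53inp2, the autophagy-linked paralogue of Trp53inp1, had 6284 and 5200 under AAPH and background values of 110 and 115 with berberine, at least 35.7-fold lower. Among the other cyclin-dependent kinase inhibitors, Cdkn2c (p18) fell by 4.17 ± 0.165 in log2, whereas Cdkn1b (p27), the nearest relative of p21 on the list, rose from 1488 and 1173 to 5058 and 3064 (2.38 ± 0.173, or 1.58 on the values as deposited). Phlda1, a paralogue of Phlda3, was higher on both of its named probes, with 34721 and 27040 under AAPH and 140004 and 119946 with berberine on the brighter probe (log2 1.62 ± 0.117, or 2.69 after median centring). Zmat4 rose by 1.58 ± 0.190, a call lost on the values as deposited (adjusted p from limma 0.238). Zmat2 gave opposite directions on its named probes, log2 −3.39 and 2.91.

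Genes of cyclins, cyclin-dependent kinases, pocket proteins and E2f factors, which lie in the pathway under p21, were split. Of 21 listed genes 12 had a name, of which 7 were lower and 5 higher, with a median log2 fold change of −1.82. Ccnd1, the cyclin D1 gene, fell from 115510 and 98839 to 1026 and 1011 (log2 −6.43 ± 0.113). Ccnd3 fell by 3.62 ± 0.210 on the log2 scale and Cdk2 was at least 43.2-fold lower, and both named probes of each gene were lower. The retinoblastoma gene Rb1, which p21 keeps active through kinase inhibition, rose from 1526 and 1332 to 7045 and 4838 (log2 2.75 ± 0.137). Its relative Rbl2 rose by 2.43 ± 0.182 and E2f3, a factor held by Rb1, by 1.68 ± 0.120. On the values as deposited the rises of Rb1 and Rbl2 were smaller, log2 2.03 and 1.54 (adjusted p from limma 0.0129 and 0.042), and after median centring that of E2f3 was larger, 2.41.

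On the Akt side, where Phlda3 acts, 12 of 18 listed genes had a name, of which 4 were lower and 8 higher (median log2 fold change 1.90). Akt1, the kinase that Phlda3 restrains, fell from 45824 and 38101 to 246 and 367 (log2 −6.93 ± 0.249, or −6.34 without the first berberine array), and the kinase gene Mtor fell from 4687 and 3982 to background values of 90 and 104. Rictor, a subunit of the complex that phosphorylates Akt, was at least 12.3-fold lower. The PI3 kinase subunit Pik3cb rose by 2.69 ± 0.111 on the log2 scale, and by 1.98 on the values as deposited. Pdpk1, the kinase upstream of Akt, had one probe at log2 2.50 and the other at −3.50.

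The named probes with the signal pattern most like each gene, by Euclidean distance over the 4 normalized log2 values, were as follows. Nearest to Cdkn1a were Trappc4 (distance 0.210), Csf1 (0.212) and Ap3s1 (0.214). For Trp53inp1 they were Ccm2 (0.232), Magohb (0.246) and Ccrn4l (0.248). For Phlda3 they were Aimp1 (0.609), Ddx1 (0.685) and Sqstm1 (0.688), and those of Zmat3 included Rpa2 (0.384) and Dnajc2 (0.562). Those given for Phlda3 and Zmat3 were, like them, at background with berberine. Their distances therefore reflect background signal in part.

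In the authors' deposited table of biological processes, Cdkn1a stood under 21 of 406 terms, Trp53inp1 under 12, Zmat3 under 8 and Phlda3 under 3. No term held all 4. Phlda3, Zmat3 and Trp53inp1 shared apoptotic process, with 299 of 570 genes called and a q-value of 6.83e-08 in the authors' deposited table. Cdkn1a and Zmat3 shared the response to DNA damage (277 of 420 genes called, q = 3.81e-25), and Cdkn1a and Trp53inp1 shared cell cycle arrest (54 of 81, q = 0.00059). Cdkn1a and Phlda3 shared p53-mediated apoptotic signalling after DNA damage, with 19 of 31 genes called and a q-value of 0.67. These q-values count called genes in either direction and do not speak to the direction of the 4 genes.

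The labelled cell type could be checked only in part. Of 14 neural progenitor markers 6 had a name (Msi1, Prom1, Hes1, Sox9, Id2 and Bmi1). All 6 were detected under AAPH and 4 with berberine, with 4 lower and 2 higher, and their summed intensity was 17959 and 20766 under AAPH and 4005 and 4367 with berberine. The call of Msi1 as higher was lost on the values as deposited (log2 0.17, adjusted p from limma 0.634) and without the second AAPH array (1.21, adjusted p 0.051), which left Prom1 as the only one higher. The markers Nes, Sox2 and Vim had no named probe. Of other cell types, all 3 named of 5 astrocyte markers were higher, with a summed intensity of 2233 and 2599 under AAPH and 4038 and 4131 with berberine. All 4 named of 5 oligodendrocyte markers were higher too (11211 and 13654, then 31369 and 43037), as were all 3 named of 5 endothelial markers (1134 and 1275, then 1606 and 1712). In the same quantile-normalized fit 55.6% of all named genes were called higher, and only called probes carry names. The glial and endothelial calls were not checked on the values as deposited. Neuron markers were split, 4 higher and 2 lower of 6 named (15059 and 18782, then 6287 and 7022). Of 3 named fibroblast markers 2 were lower and 1 higher (8019 and 9568, then 4768 and 5652). The only named microglial marker, Csf1r, was at background under AAPH. No marker list was at 0 on any array, but background signal is not 0 either, so these sums do not show that a cell type was present. The part of cell composition in the falls of the 4 genes was not tested.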

How the data were processed

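Total RNA was measured on 4 arrays, 2 per group. The deposited value table holds a linear intensity per probe and array, with the authors' correction and scaling not given in the sources used here. Per the file headers, the deposited sheet of 9800 called probes gives each group's detection p-value and mean normalized intensity and the authors' log2 ratio and p-value; further deposited sheets give counts of called genes per biological process term, the enrichment p-value and q-value, and other entries, namely the probe IDs under each term. The sheet's groups G1 and G3 were read as AAPH and AAPH with berberine, since 99.9% and 99.2% of their means lay within 5% of those arrays' means. The header calls these means normalized, so the quantile normalization used here came on top of the authors' own scaling. The whole-series tables held 0 columns of no sample.

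Intensities were floored at 1, log2-transformed, quantile-normalized and then fitted in R 4.3.3 with limma 3.58.1 (lmFit, eBayes) on all 26423 probes, with Benjamini-Hochberg adjustment and a threshold of 0.05. The fit was also run on simulated arrays, where changes were few and balanced in direction. That run cannot judge quantile normalization on the real arrays, where calls were many and unequal in direction. Quantile normalization put the median log2 difference of all probes at 0.39 (0.13 without it, 0.74 with median centring instead), the baseline of every change given. Each gene was represented by its brightest named probe over all arrays. A probe with a detection p-value of 0.01 or more in a group was taken as at background there. For its bound, each dim array contributed its own value or the lowest detected value, whichever was larger, and their average was set against the bright group's average. Some probes at background lay above the lowest detected values (127 and 113 with berberine), such as Tnfaip8 with 130 and 156. Every "at least" therefore holds under this rule and is not a strict limit. Genes named were the 4 genes, Trp53, up to 3 genes per list and direction by adjusted p, and the 3 nearest probes per gene. Gadd45a and the cell type markers were named outside this rule, Gadd45a after its values were seen. The 4 genes, lists and alternatives were chosen with earlier results of these data known. The p53 element was defined as contiguous after a first search that allowed a gap of up to 13 bases, which 0.417% of windows met. Some genes that the naming rule selects are not reported here.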

Additional observations from a re-analysis of the deposited data

How the results depend on the processing

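The falls of Cdkn1a, Phlda3, Zmat3 and Trp53inp1 kept their direction and their call under all 10 alternative fits, and the authors' ratio has the same direction. These 4 genes have names only because the authors had already called their probes on these arrays, so neither outcome adds independent support. Without a given array their log2 fold changes ran from −3.32 to −2.88, from −10.50 to −10.01, from −7.64 to −7.44 and from −5.08 to −4.81, in that order. A fit without 1 array leaves a group with a single array, which is assumed to vary like the other group. On the values as deposited, 8770 probes were called in place of 16578, 3534 of them higher in place of 10635, and 7 other p53 targets were higher in place of 14. The cause was not tested. With the mean of its probes Pdpk1 turned to log2 −0.50. The labels give both groups replicate numbers 1 and 2 without saying that these pair the arrays. Deviations of same-numbered arrays correlated at −0.016. With the replicate block 15558 probes were called, and no call of the 4 genes changed (adjusted p from limma 0.0025 to 0.00317). Signal at background with berberine limits Phlda3 and Zmat3 to bounds.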
